A study of Rattus norvegicus with 10 samples.

Results

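The zinc-dependent histone deacetylases were followed through the CA1 region of rat hippocampal slices by taking the rows of the deposited count table whose gene name is Hdac1, Hdac2, Hdac3, Hdac4, Hdac5, Hdac6, Hdac7, Hdac8, Hdac9 or Hdac11. Of these 10 names, 9 were found, on 10 of the 32545 rows of the table, because Hdac6 stands on 2 rows. No row carries the name Hdac1. After genes with low counts were left out, 9 rows were tested among 15032, which were 3 of class I (Hdac2, Hdac3, Hdac8), 4 of class IIa (Hdac4, Hdac5, Hdac7, Hdac9), 1 of class IIb (Hdac6) and Hdac11, the only member of class IV. The row left out was the second Hdac6 row (ENSRNOG00000047281), with 1 count in 1 library and 0 in the other 9.

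The experiment treated slices with SKF, an agonist of the dopamine D1/D5 receptors used to activate synapses chemically, with oligomers of the Aβ(1–42) peptide at 200 nM, and with CSP, a glucose-derived carbon nanosphere, at 0.36 μg/ml. CSP carries TTK21, a small-molecule activator of the acetyltransferases CBP and p300, in CSP‐TTK21, and served without it as the vehicle. The 5 groups of 2 libraries each had SKF only (SKF), SKF with the peptide (SKF+Aβ), both of these with the vehicle (SKF+Aβ+CSP) or with the loaded nanosphere (SKF+Aβ+CSP‐TTK21), and the loaded nanosphere by itself (CSP‐TTK21 alone). The last group had neither SKF nor Aβ, so it differs from SKF in both the agonist and the nanosphere. Every slice had 30 min of basal stimulation and was collected 1 h after treatment, and each repeat pooled 2 slices from 2 biological samples. The rats of the slice recordings were adult male Wistar animals 5 to 7 weeks old. No genotype was changed, Aβ was added from outside for a short time rather than made by the tissue, and an untreated group was not used here. In dissected tissue of this kind a lower value can come from fewer cells of a type or from less RNA per cell, and these cannot be told apart.

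Histone deacetylases remove acetyl groups from lysines of histones and other proteins, and so oppose acetyltransferases such as CBP and p300, whose activation is the purpose of TTK21. Class I enzymes are nuclear and, apart from Hdac8, work inside corepressor complexes, while class IIa enzymes have weak activity of their own and move between nucleus and cytoplasm as calcium-dependent kinases phosphorylate them. In the hippocampus Hdac2 and Hdac3 are known as brakes on memory formation, and Hdac4 and Hdac5 as regulators of activity-dependent transcription through MEF2.

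Total counts were between 6753742 and 8473407 per library, so that 3 counts correspond to between 0.354 and 0.447 CPM. Levels are given in CPM, counts scaled to a common library total with TMM factors. Replicates were not copies of each other, since the chi-square per degree of freedom between the 2 libraries of a group was between 4.98 and 12.7. The numbers compare a gene between libraries only, since exon lengths were not at hand to compare genes with each other. Neuronal markers were abundant in all libraries, with a summed level of 5 markers between 5328 and 6374 CPM. Of 4 markers of CA1 pyramidal cells, Wfs1 and Mpped1 were present, Fibcd1 was at 0 in every library and Pou3f1 had no row. Their sum was between 245 and 529 CPM. It was 521 and 289 CPM in the 2 libraries of SKF+Aβ, and 529 and 297 CPM in those of SKF+Aβ+CSP‐TTK21. Prox1, a marker of dentate granule cells, had between 1024 and 1772 counts. Mitochondrial transcripts took between 3.60% and 7.74% of the counts, and the lowest share was that of SKF replicate 1.

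Taken over the 5 groups at once, none of the 9 tested rows differed (edgeR quasi-likelihood F test, Benjamini-Hochberg adjusted p under 0.05). Only 1 of the 15032 genes, 0.00665%, passed that test. At an unadjusted p under 0.05 it marked 2 of the 9, Hdac11 (adjusted p = 0.244) and Hdac2 (adjusted p = 0.270), against 14.3% of all genes tested. The other 7 rows had adjusted p-values between 0.410 for Hdac7 and 0.962 for Hdac9. DESeq2 likewise called none of the 9 over the 5 groups, while it called 407 genes in all.

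**Figure D1:**
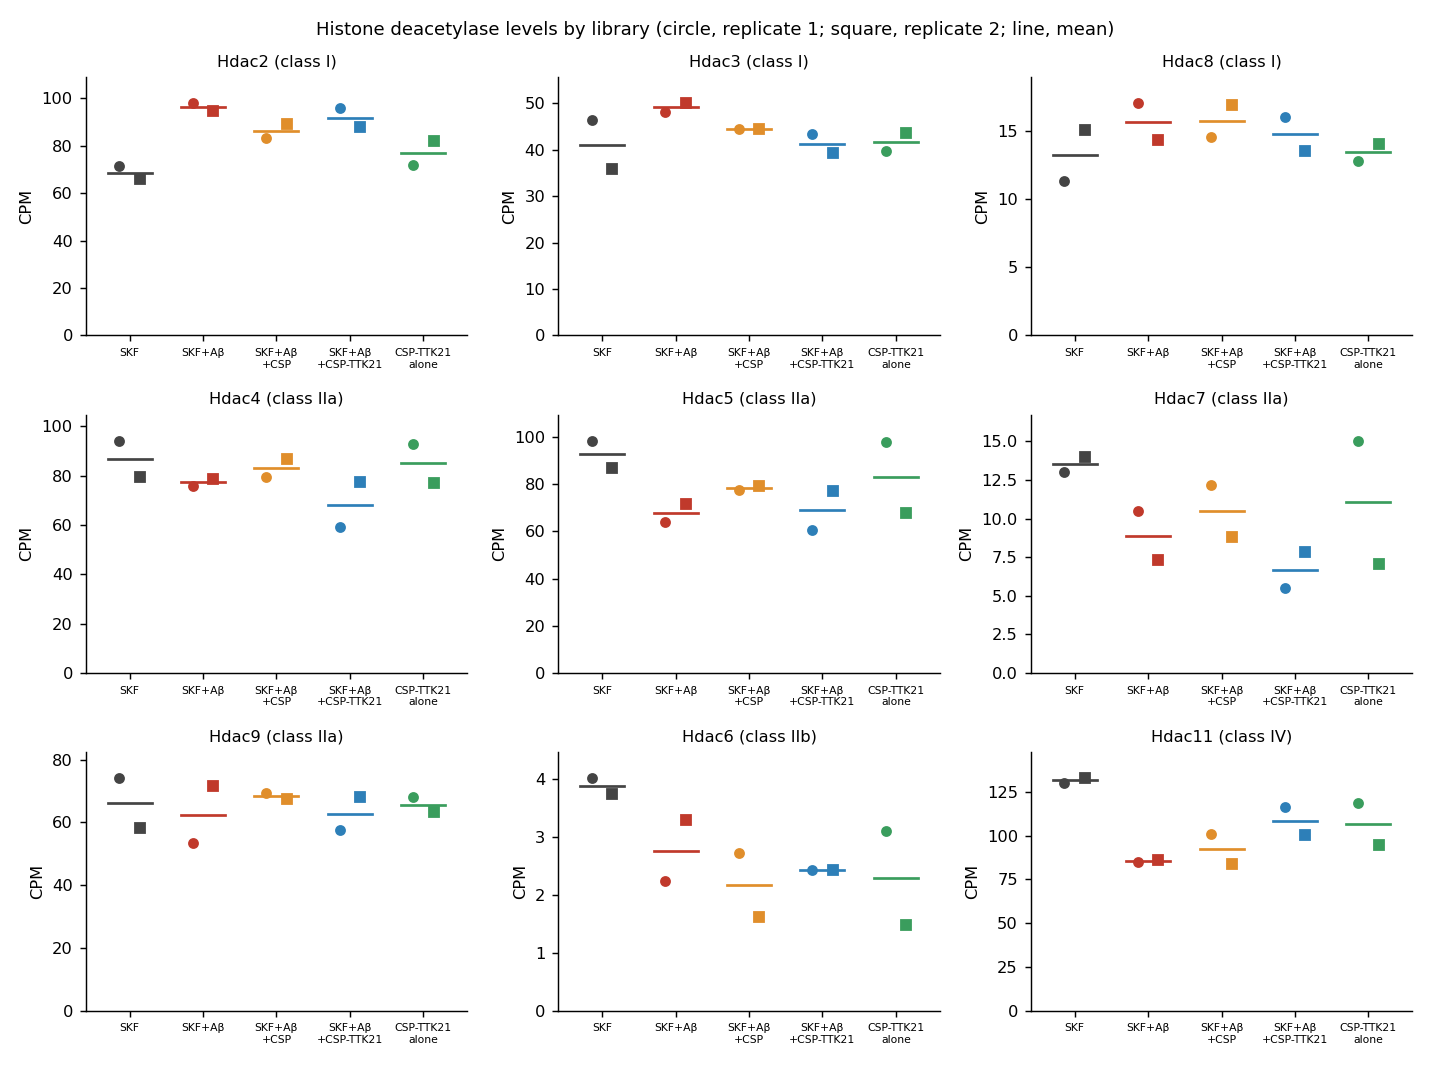
Level of each tested histone deacetylase in CPM (y axis, from 0) in the 10 libraries, arranged by treatment group (x axis), with circles for replicate 1, squares for replicate 2 and a line at the group mean. Hdac11 sits at 130.2 and 132.8 CPM in SKF and at 84.6 and 85.8 CPM in SKF+Aβ, while Hdac2 is lowest in SKF, and Hdac9 overlaps in all groups.

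Hdac11 was the only member past the edgeR adjusted threshold in any comparison, and it was lower in SKF+Aβ than in SKF. DESeq2 called Hdac2 as well in that contrast, where it called 822 genes in all against 312 with edgeR. Hdac11 (ENSRNOG00000006824) is the smallest enzyme of the family, known to remove long-chain fatty acyl groups from lysine and to be well expressed in brain. Its level was 130.2 and 132.8 CPM in the SKF libraries and 84.6 and 85.8 CPM in SKF+Aβ. With SKF+Aβ+CSP it was 100.9 and 83.8 CPM, with SKF+Aβ+CSP‐TTK21 it was 116.1 and 100.2 CPM, and with CSP‐TTK21 alone it was 118.7 and 94.6 CPM. Both SKF libraries were therefore above the other 8, while SKF had the highest group mean for 30.1% of all genes. Both SKF+Aβ libraries were among the 3 lowest for Hdac11, beside SKF+Aβ+CSP replicate 2. From SKF to SKF+Aβ it fell by 0.63 ± 0.15 on the log2 scale (SE, n = 2 against 2), to 0.648 of the SKF level, with an edgeR adjusted p of 0.0492. The 1 member of 9 that was called lower compares with 128 of the 15032 genes, 0.852%, that were called lower in this contrast.

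That adjusted p lies just under the threshold. Leaving out either library of SKF, SKF+Aβ, SKF+Aβ+CSP or SKF+Aβ+CSP‐TTK21 gave log2 fold changes of Hdac11 between -0.66 and -0.61 with edgeR adjusted p-values between 0.0517 and 0.178, so the call was lost each time while the size stayed. Without CSP‐TTK21 alone replicate 1 or 2 it was kept, at 0.0497 and 0.0499. A fit of only the 4 libraries compared gave 0.10, and DESeq2 gave 0.00891. The change is also smaller than the log2 fold change of 1.5 that the study's methods set as a limit, which no member reached in any of the 8 comparisons. The genes past both that limit and the adjusted threshold were 0.146% of all genes here, 0.0133% in SKF+Aβ+CSP against SKF and 0% in the other 6 comparisons.

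Against SKF, the fitted log2 difference of Hdac11 in SKF+Aβ+CSP was -0.51 ± 0.15 (edgeR adjusted p = 0.105). In SKF+Aβ+CSP‐TTK21 the difference from SKF was -0.28 ± 0.15 (adjusted p = 0.306), and in CSP‐TTK21 alone it was -0.30 ± 0.15 (adjusted p = 0.649). These contrasts share the SKF libraries with the first. SKF+Aβ+CSP‐TTK21 set directly against SKF+Aβ gave 0.34 ± 0.15 with a 95% interval from 0.02 to 0.66, and an edgeR adjusted p of 0.746. The libraries of those 2 groups did not overlap for Hdac11, but the test across all genes did not call the difference. Likewise without overlap between them were 35.9% of all genes. Against the vehicle group SKF+Aβ+CSP, SKF+Aβ+CSP‐TTK21 gave 0.23 ± 0.15 with a 95% interval from -0.09 to 0.54. The edgeR adjusted p was 0.642 and the libraries overlapped.

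Summed markers of some cell types also differed between SKF and SKF+Aβ, where 49.6% of all genes did not overlap. All 5 oligodendrocyte markers (Mbp, Mog, Mag, Mobp, Cnp) had a row and none was at 0. Their summed level was between 12408 and 18569.6 CPM in SKF and between 7701 and 10481.5 CPM in SKF+Aβ, without overlap, and the log2 difference was below 0 for 5 of 5, none of which passed the test (Mbp -0.80, edgeR adjusted p = 0.0745). The sums were between 11744 and 12294 CPM in SKF+Aβ+CSP. They were between 10599 and 16346.5 CPM in SKF+Aβ+CSP‐TTK21 and between 10315 and 11024 CPM in CSP‐TTK21 alone. Their order was not that of Hdac11 in every library. CSP‐TTK21 alone replicate 1 had 11024 CPM with Hdac11 at 118.7 CPM, and SKF+Aβ+CSP replicate 1 had 12294 CPM with 100.9 CPM. The interneuron sum was between 357 and 364 CPM in SKF and between 366 and 519 CPM in SKF+Aβ, and the meningeal sum was between 9.54 and 12.7 CPM against between 15.2 and 27.9 CPM. The mitochondrial share was 3.60% and 5.55% in the SKF libraries and 6.24% and 5.93% in SKF+Aβ. The part of these differences in the lower Hdac11 level was not tested.

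**Figure D2:**
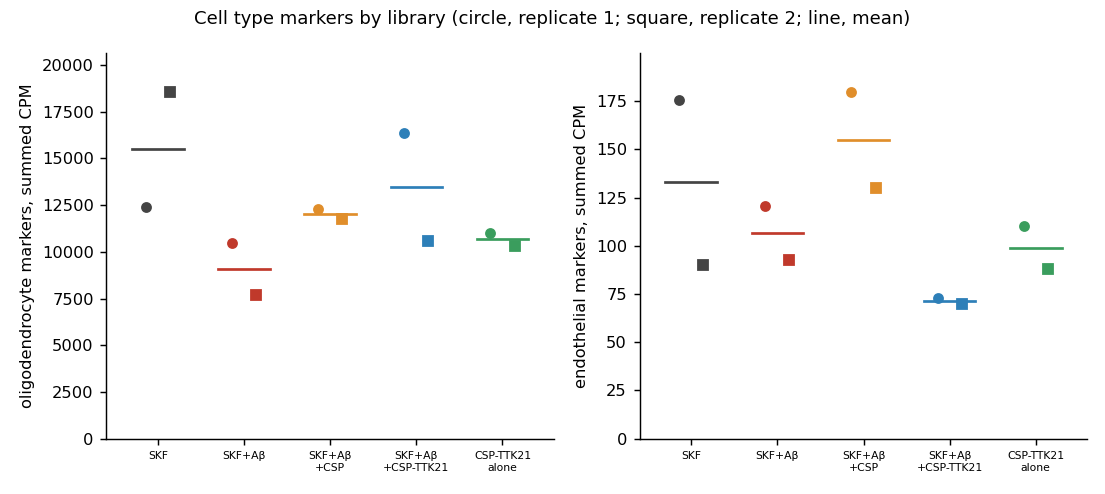
Summed CPM (y axes, from 0) of the 5 oligodendrocyte markers and of the endothelial markers in the 10 libraries by treatment group (x axes), with circles for replicate 1, squares for replicate 2 and a line at the group mean. The oligodendrocyte sum is lower in both SKF+Aβ libraries than in both SKF libraries, and the endothelial sum is lowest in SKF+Aβ+CSP‐TTK21, between 69.9 and 73.1 CPM.

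Across the 10 libraries the genes whose log2 CPM was most like that of Hdac11 were Gnb2 (Pearson r = 0.957, Spearman rho = 0.915), which encodes a G protein beta subunit, Lsm4 (r = 0.956, rho = 0.903), a component of the RNA-binding Lsm ring, and Lrrc4b (r = 0.955, rho = 0.964), a synaptic adhesion protein. Of the 15031 other genes tested, 52 had an r over 0.9. The points are 5 pairs of libraries of the same treatment, so the values describe these libraries only.

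In class I none of the 3 tested members passed the edgeR threshold in any comparison. All 3 had their lowest group mean in SKF, as had 29.9% of all genes. But Hdac3 and Hdac8 were only 0.02 above SKF on the log2 scale in CSP‐TTK21 alone, and Hdac3 only 0.0068 in SKF+Aβ+CSP‐TTK21. Hdac2 (ENSRNOG00000000604), a catalytic subunit of the Sin3, NuRD and CoREST complexes, was at 71.6 and 65.8 CPM in SKF, 98.1 and 94.5 CPM in SKF+Aβ, 83.4 and 89.3 CPM in SKF+Aβ+CSP, 95.9 and 87.8 CPM after SKF+Aβ+CSP‐TTK21, and 71.9 and 82.2 CPM in CSP‐TTK21 alone. Each of the 6 libraries with Aβ was above each of the 4 without it, the nearest being 83.4 and 82.2 CPM. The share of all genes split in this way was not counted, while 25.2% were higher without overlap in SKF+Aβ against SKF. For Hdac2 this contrast gave a log2 fold change of 0.49 ± 0.13 (SE, n = 2 against 2), or 1.40-fold. It missed the edgeR threshold at an adjusted p of 0.0671. DESeq2 called it, at an adjusted p of 0.0311, or 0.0476 without its independent filtering, and over all alternatives the adjusted p ran from 0.0311 to 0.217.

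The other groups with Aβ had log2 differences of Hdac2 from SKF of 0.33 ± 0.13 with CSP (edgeR adjusted p = 0.198) and 0.42 ± 0.13 with CSP‐TTK21 (adjusted p = 0.137). Neither passed. CSP‐TTK21 alone differed from SKF by 0.17 ± 0.13 (adjusted p = 0.756). Adding CSP‐TTK21 to SKF+Aβ gave -0.07, with a 95% interval from -0.35 to 0.21, and an edgeR adjusted p of 0.929.

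The promoter of Hdac2 is shown because it is the class I member with the lowest p over the 5 groups. It lies at chr20:42102877-42103176 (plus strand) of the RefSeq assembly GRCr8, runs from 250 bases before to 50 bases after the annotated start, and is printed 5′ to 3′ on the gene's strand. Capitals would mark the half-site of the cAMP response element (TGACG, the CREB motif, on either strand) or the MEF2 motif, and neither is found in it.
Hdac2: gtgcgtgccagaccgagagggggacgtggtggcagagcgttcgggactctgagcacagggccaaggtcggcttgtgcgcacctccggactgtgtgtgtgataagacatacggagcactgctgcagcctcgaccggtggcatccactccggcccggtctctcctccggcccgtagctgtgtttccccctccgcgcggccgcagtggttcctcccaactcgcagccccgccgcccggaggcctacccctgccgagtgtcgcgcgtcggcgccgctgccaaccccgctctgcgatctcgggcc

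Hdac3 (ENSRNOG00000019618), a catalytic subunit that works in NCoR complexes, was at 46.4 and 35.8 CPM in SKF, 48.2 and 50.1 CPM in SKF+Aβ, 44.4 and 44.4 CPM in SKF+Aβ+CSP, 43.3 and 39.2 CPM after SKF+Aβ+CSP‐TTK21, and 39.8 and 43.6 CPM in CSP‐TTK21 alone. SKF replicate 1 lay within the range of the other groups, and over the 8 comparisons the log2 differences of Hdac3 ran from -0.25 to 0.26, the lowest adjusted p being 0.339. Hdac8 (ENSRNOG00000003122), which acts without a corepressor complex, had between 11.3 and 17.0 CPM from 82 to 125 counts, with log2 differences between -0.09 and 0.25. Its groups overlapped in all 8 comparisons.

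Hdac1 has no row under its own name. The rat annotation used in the table holds 2 rows named Hdac1l, of which ENSRNOG00000009568 had between 208 and 314 counts and ENSRNOG00000013695 between 0 and 4, and neither was taken as Hdac1, though whether the larger row is the Hdac1 gene itself was not settled here. RefSeq lists 18 pseudogenes named for Hdac1 and 1 for Hdac2, so reads of such copies may have been divided, which makes the Hdac2 counts less certain as well. The larger Hdac1l row stood between 31.0 and 40.0 CPM and had a log2 difference of -0.18 ± 0.14 between SKF+Aβ and SKF (edgeR adjusted p = 0.459). A row for Hdac10 was in the table and not among the genes chosen, with 41 to 76 counts.

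In class IIa no member passed the edgeR threshold in any comparison. All 4 means were below that of SKF in SKF+Aβ, in SKF+Aβ+CSP‐TTK21 and also in CSP‐TTK21 alone, which had no Aβ, while in SKF+Aβ+CSP the mean of Hdac9 was above it (68.3 against 66.1 CPM). SKF had the highest mean of the 5 groups for the other 3, as for 30.1% of all genes. Hdac5 (ENSRNOG00000020905), a partner of MEF2 in the nucleus, was at 98.6 and 87.0 CPM in SKF, 63.8 and 71.5 CPM in SKF+Aβ, 77.7 and 79.2 CPM in SKF+Aβ+CSP, 60.7 and 77.1 CPM after SKF+Aβ+CSP‐TTK21, and 97.9 and 68.0 CPM in CSP‐TTK21 alone. Both SKF libraries were above all 6 libraries with Aβ, while the libraries of CSP‐TTK21 alone spanned most of the range. The log2 difference from SKF was -0.46 ± 0.18 in SKF+Aβ (edgeR adjusted p = 0.149) and -0.43 ± 0.18 in SKF+Aβ+CSP‐TTK21 (adjusted p = 0.208), the latter being -0.26 without replicate 1 and -0.63 without replicate 2 of SKF+Aβ+CSP‐TTK21.

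Hdac7 (ENSRNOG00000055597), known from developing blood vessels and thymocytes, had the widest range of class IIa relative to its level. It was at 13.0 and 14.0 CPM in SKF, 10.5 and 7.30 CPM in SKF+Aβ, 12.2 and 8.79 CPM in SKF+Aβ+CSP, 5.50 and 7.84 CPM after SKF+Aβ+CSP‐TTK21, and 15.1 and 7.08 CPM in CSP‐TTK21 alone, from 43 to 107 counts. SKF+Aβ+CSP‐TTK21 had the lowest mean, and its difference from SKF was -1.02 ± 0.34 on the log2 scale (edgeR adjusted p = 0.147). Without its replicate 1 that difference was -0.78 and without its replicate 2 it was -1.31. Only a fit with no filter on low counts called it, at an adjusted p of 0.00759.

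Endothelial markers also had their lowest sums in SKF+Aβ+CSP‐TTK21. Their summed level was between 69.9 and 73.1 CPM in SKF+Aβ+CSP‐TTK21 and between 90.2 and 175.7 CPM in SKF, and between 88.0 and 179.8 CPM in the other 3 groups. Of the 6 endothelial markers, Flt1, Kdr, Cdh5 and Tek were tested and 3 of these had a log2 difference from SKF below 0 (Cdh5 -1.25, edgeR adjusted p = 0.114), while Cldn5 was at 0 in every library and Pecam1 had no row. Mural markers (Pdgfrb, Rgs5, Acta2) summed to between 40.8 and 43.5 CPM in SKF+Aβ+CSP‐TTK21 and between 45.0 and 54.9 CPM in SKF. In the SKF libraries the endothelial sum was 175.7 and 90.2 CPM, with Hdac7 at 13.0 and 14.0 CPM. The part of these marker differences in the Hdac7 level was not tested.

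Hdac4 (ENSRNOG00000020372), a MEF2 partner needed for learning, was at 94.3 and 79.6 CPM in SKF, 76.0 and 78.8 CPM in SKF+Aβ, 79.4 and 86.9 CPM in SKF+Aβ+CSP, 59.1 and 77.4 CPM after SKF+Aβ+CSP‐TTK21, and 92.8 and 77.1 CPM in CSP‐TTK21 alone. Its difference from SKF in SKF+Aβ+CSP‐TTK21 was -0.35 ± 0.16 (edgeR adjusted p = 0.249). The size depended on both libraries of SKF+Aβ+CSP‐TTK21, as the log2 difference was -0.17 without replicate 1 and -0.57 without replicate 2. Hdac9 (ENSRNOG00000004158), which also binds MEF2, was between 53.4 and 74.1 CPM, its groups overlapped in every comparison, and its log2 differences lay between -0.12 and 0.13.

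The promoters of Hdac5 and Hdac7 are shown because these have the lowest p-values of class IIa over the 5 groups. They lie at chr10:87688005-87688304 (minus strand) and chr7:130840968-130841267 (minus strand) of GRCr8, over the same window and in the same orientation as above. Capitals mark, in the order read, a MEF2 motif and 2 CRE half-sites in Hdac5, and Hdac7 holds none of them.
Hdac5: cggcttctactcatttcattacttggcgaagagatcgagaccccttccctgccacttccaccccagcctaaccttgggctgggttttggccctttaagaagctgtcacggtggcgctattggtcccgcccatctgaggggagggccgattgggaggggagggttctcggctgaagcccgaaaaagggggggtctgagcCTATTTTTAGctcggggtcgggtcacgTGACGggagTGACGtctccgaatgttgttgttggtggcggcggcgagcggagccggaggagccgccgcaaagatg
Hdac7: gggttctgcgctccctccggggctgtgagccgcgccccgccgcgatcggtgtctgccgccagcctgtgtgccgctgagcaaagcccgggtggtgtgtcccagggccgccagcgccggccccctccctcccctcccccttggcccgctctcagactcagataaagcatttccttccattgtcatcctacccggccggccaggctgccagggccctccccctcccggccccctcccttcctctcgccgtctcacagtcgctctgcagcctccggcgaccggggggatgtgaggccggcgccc

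Of the 9 members with a RefSeq promoter, the CRE half-site TGACG was found on either strand in Hdac1, Hdac4, Hdac5 and Hdac8, and in 21.2% of all 33469 rat promoters of that length. The full element TGACGTCA, which contains the half-site, was in none of the 9 and in 1.83% of all. The MEF2 motif was in Hdac5 only, against 3.29% of all promoters, and the GC box GGGCGG was in 6 members (Hdac1 to Hdac6), against 33.1% of all. Hdac11 was without an entry among these promoters. A match describes the letters in the window and not the binding of a factor.

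Hdac6, the cytoplasmic deacetylase of class IIb that acts on tubulin, was close to the lower limit of the tested genes. Its main row (ENSRNOG00000048738) had between 11 and 29 counts, or 4.01 and 3.74 CPM in SKF and between 1.47 and 3.28 CPM in the other 8 libraries. SKF had the highest group mean for 30.1% of all genes, and for Hdac6 both its libraries were above the other 8. The log2 differences from SKF were between -0.81 and -0.49, each with an SE of 0.43, and the lowest adjusted p was 0.321, so these differences were not called with this few counts and this spread between replicates.

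**Figure D3:**
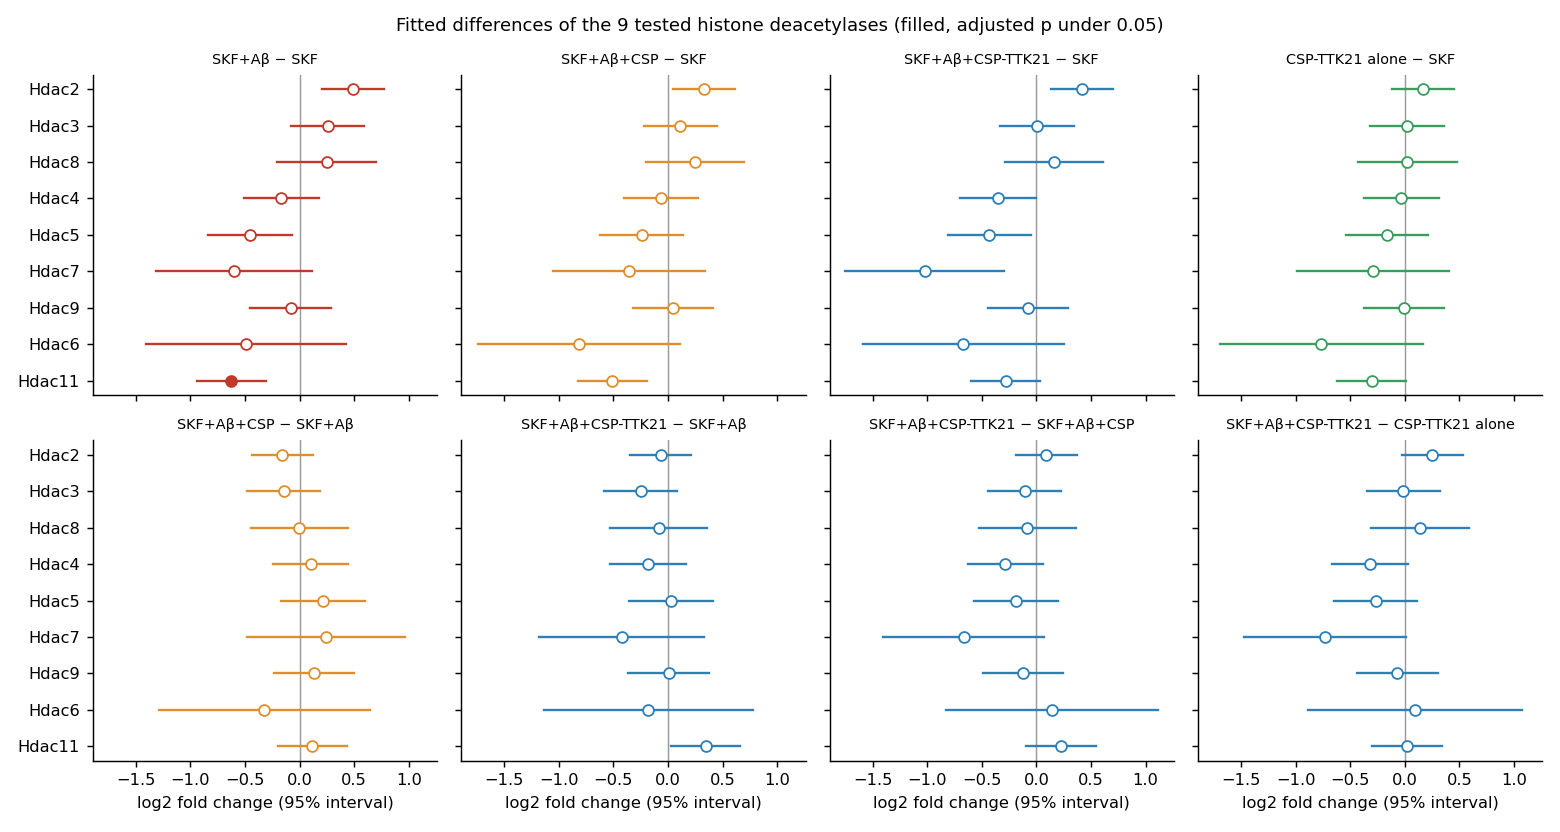
Fitted log2 fold changes (x axes) of the 9 tested histone deacetylases (y axes) in the 8 comparisons, with bars for 95% intervals and filled points for an edgeR adjusted p under 0.05. Hdac11 in SKF+Aβ against SKF, at -0.63, is the only filled point, and the intervals of Hdac6 and Hdac7 are the widest.

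Across SKF+Aβ against SKF, 7 of the 9 rows had libraries that did not overlap between the groups, against 49.6% of all genes. Hdac2 and Hdac3 were the higher ones (25.2% of all genes were higher without overlap), and Hdac4, Hdac5, Hdac6, Hdac7 and Hdac11 the lower ones (24.3%). At an unadjusted p under 0.05 there were 3 members of 9, Hdac2, Hdac5 and Hdac11, against 22.8% of all genes, and at the adjusted threshold 1 of 9 against 2.08%. The median log2 difference was -0.17 over the 9 rows and -0.00133 over all genes tested. With both the adjusted threshold and the log2 limit of 1.5, no member and 0.146% of all genes remained.

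The same count without overlap against SKF was 5 of 9 in SKF+Aβ+CSP (52.4% of all genes) and 6 of 9 in SKF+Aβ+CSP‐TTK21 (50.5%). Hdac2 was the only higher member in both, where 27.1% and 26% of all genes were higher, and the others were lower (25.3% and 24.5%). In CSP‐TTK21 alone it was 3 of 9 (36.1%), with Hdac2 higher (18.8%) and Hdac6 and Hdac11 lower (17.3%). None of the 9 passed the edgeR adjusted threshold in these 3 contrasts, against 0.02%, 0.00665% and 0% of all genes. At an unadjusted p under 0.05 they held 2 members (19.3% of all genes), 4 members (19.6%) and no member (7.78%) in that order. DESeq2 called none of the 9 in these contrasts, and 452, 355 and 3 genes in all.

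The 4 contrasts that do not use SKF as the reference set the vehicle, the loaded nanosphere, TTK21 itself, and SKF with Aβ against a matched group, and edgeR called none of the 9 members in any of them, as was true of every gene tested (0%). DESeq2 called no member there either, and between 0 and 22 genes in all. Between SKF+Aβ+CSP and SKF+Aβ, which differ by the vehicle, no member had an unadjusted p under 0.05 (2.18% of all genes), and 4 of 9 did not overlap (27.2%), with Hdac4 and Hdac5 higher (14.3%) and Hdac2 and Hdac3 lower (12.9%). When CSP‐TTK21 was added to SKF+Aβ, only Hdac11 had an unadjusted p under 0.05 (6.59%), and 2 of 9 did not overlap (35.9%), Hdac11 higher (18.2%) and Hdac3 lower (17.7%).

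When SKF+Aβ+CSP‐TTK21 was set against its vehicle group, which differs by TTK21, no member had an unadjusted p under 0.05 (8.78% of all genes). The 4 of 9 without overlap (46.3%) were all lower with TTK21 (22.8% of all genes lower and 23.5% higher), namely Hdac3, Hdac4, Hdac5 and Hdac7, and the log2 difference of Hdac7 was -0.66 with a 95% interval from -1.40 to 0.07. In the last contrast, of the CSP‐TTK21 groups with and without SKF and Aβ, no member had an unadjusted p under 0.05 (4.18%), and of the 33.6% of genes without overlap (17.6% higher and 16.1% lower) Hdac2, higher with SKF and Aβ, was the only member. Apart from Hdac6, the 95% intervals of the members in these 4 contrasts reached from -1.47 to 0.96, the widest being those of Hdac7.

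Within a library, the ratio of Hdac2 counts to Hdac11 counts was 0.550 and 0.495 in SKF and 1.16 and 1.10 in SKF+Aβ. With the vehicle added it was 0.827 and 1.06, with the loaded nanosphere 0.826 and 0.876, and with CSP‐TTK21 alone 0.605 and 0.869. Both SKF libraries had the lowest and both SKF+Aβ libraries the highest ratios, a description of 2 members named above for their differences, with no test. The 3 class I rows, without Hdac1, summed to 129.4 and 116.7 CPM in SKF and 163.3 and 158.9 CPM in SKF+Aβ. Of these rows, Hdac2 had means of 68.7 CPM in SKF and 96.3 CPM in SKF+Aβ. The 4 class IIa rows summed to 279.9 and 238.7 CPM in SKF and 203.7 and 229.2 CPM in SKF+Aβ. In the other groups the class IIa sum was 238.7 and 242.2 CPM with the vehicle, which overlaps SKF, 182.7 and 230.4 CPM with the loaded nanosphere, and 273.9 and 215.5 CPM with CSP‐TTK21 alone. The class I sum there was between 124.5 and 155.2 CPM. Summed over all members, the level was between 451 and 544 CPM in the 10 libraries, and the SKF group (mean 518 ± 36.5 CPM, SD, n = 2) had the highest mean.

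**Figure D4:**
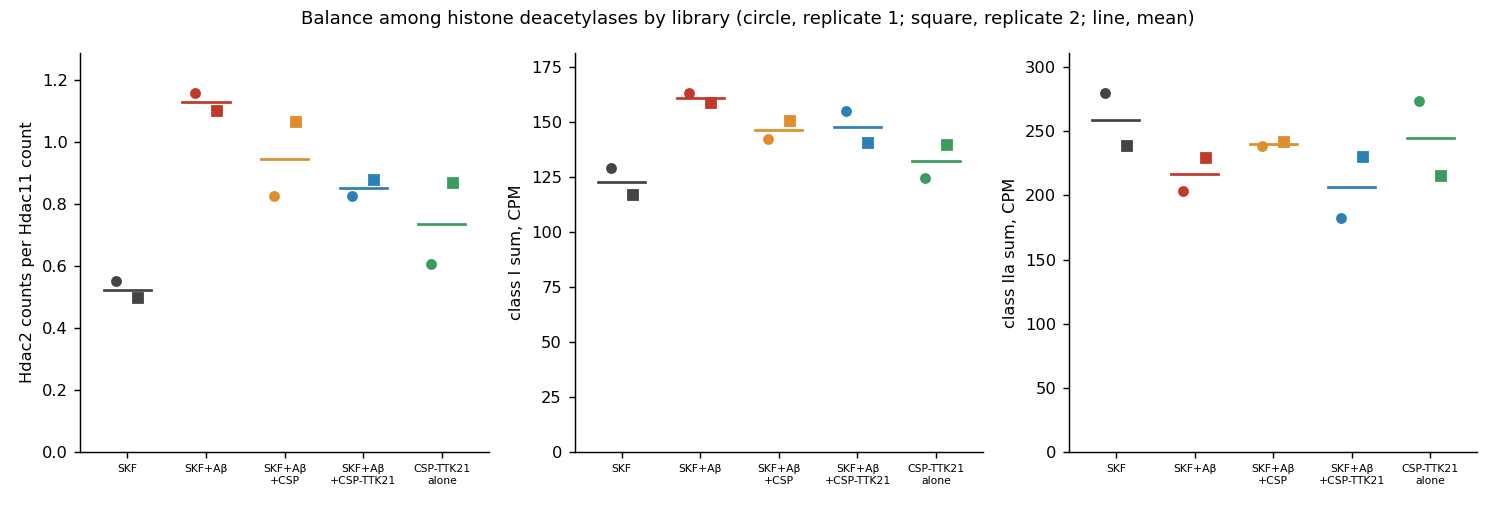
Hdac2 counts per Hdac11 count, summed class I level and summed class IIa level in CPM (y axes, from 0) in the 10 libraries by treatment group (x axes), with circles for replicate 1, squares for replicate 2 and a line at the group mean. The ratio is 0.550 and 0.495 in SKF and 1.16 and 1.10 in SKF+Aβ. The class I sum, which lacks Hdac1, is higher in SKF+Aβ while the class IIa sum is lower.

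The partners of these enzymes were read from 4 lists. Among class I corepressor subunits (27 genes, 26 rows tested), none passed with edgeR in any of the 8 comparisons. In SKF+Aβ against SKF, 7 were higher (12% of all genes) and 1 lower (10.9%) at an unadjusted p under 0.05, the latter being Mbd3, and the median log2 difference of the list was 0.04. Against the same SKF libraries, 3 were higher (10.3%) and 3 lower (9.03%) in SKF+Aβ+CSP, 5 higher (10.8%) and 1 lower (8.78%) with SKF+Aβ+CSP‐TTK21, and 1 higher (4.16%) and 1 lower (3.63%) with CSP‐TTK21 alone. Rcor2 and Sap18 were not tested, and Rcor1 was tested on more than 1 row. The subunits with the lowest p over the 5 groups were Mbd3 and Rbbp7, both of the NuRD complex. Mbd3 went from a mean of 62.2 CPM in SKF to 40.1 CPM in SKF+Aβ (log2 difference -0.63 ± 0.15, edgeR adjusted p = 0.0535), and Rbbp7, a histone-binding protein, from 89.5 to 127.7 CPM (0.51 ± 0.13, adjusted p = 0.0597). DESeq2 called both, and over all alternatives the adjusted p of Mbd3 ran from 0.00973 to 0.171 and that of Rbbp7 from 0.0191 to 0.173.

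Among class IIa partners and kinases (19 genes, all tested), none passed with edgeR in any comparison. At an unadjusted p under 0.05 the 4 higher ones in SKF+Aβ were Mef2a, Mef2c, Camk1d and Ywhah (12% of all genes) and the 1 lower was Mef2d (10.9%), with a list median of 0.14. The count was 1 higher (10.3% of all genes) and 3 lower (9.03%) in SKF+Aβ+CSP, 5 higher (10.8%) and 3 lower (8.78%) with SKF+Aβ+CSP‐TTK21, and 2 higher (4.16%) and 1 lower (3.63%) with CSP‐TTK21 alone, with medians of 0.06, 0.15 and 0.01. Sik1, a kinase that phosphorylates class IIa enzymes and is itself induced by cAMP, had a mean of 125.2 CPM in SKF, 105.8 CPM in SKF+Aβ, 103.3 CPM in SKF+Aβ+CSP, 97.0 CPM in SKF+Aβ+CSP‐TTK21 and 74.2 CPM in CSP‐TTK21 alone. The last, the only group without SKF, differed from SKF by -0.75 ± 0.13 on the log2 scale (edgeR adjusted p = 0.404). Mef2d, one of the MEF2 factors that class IIa enzymes hold in check, had a mean of 114.4 CPM in SKF and 87.8 CPM in SKF+Aβ (-0.38 ± 0.13, adjusted p = 0.104).

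Sirtuins, the deacetylases that use NAD instead of zinc, were all 7 tested, and 1 passed with edgeR. Sirt1 (ENSRNOG00000051592), a nuclear deacetylase linked to neuronal survival, was at 20.2 and 19.0 CPM in SKF, 38.7 and 31.4 CPM in SKF+Aβ, 35.4 and 38.4 CPM in SKF+Aβ+CSP, 37.6 and 35.2 CPM after SKF+Aβ+CSP‐TTK21, and 28.3 and 27.5 CPM in CSP‐TTK21 alone. All 6 libraries with Aβ were above all 4 without it, but how many of all genes split in this way was not counted. In SKF+Aβ against SKF, 25.2% of all genes were higher without overlap. Sirt1 rose by 0.84 ± 0.16 on the log2 scale from SKF to SKF+Aβ (edgeR adjusted p = 0.0355), where 1.22% of all genes were called higher. Leaving out either library of SKF, SKF+Aβ or SKF+Aβ+CSP lost this call, with log2 differences between 0.67 and 0.96 and edgeR adjusted p-values between 0.0503 and 0.158. In the other direction, Sirt2, best known from oligodendrocytes (-0.49, edgeR adjusted p = 0.114) and Sirt7 (-0.49, adjusted p = 0.196) had an unadjusted p under 0.05 (10.9% of all genes were lower so), and the list median was -0.49. That median was -0.24 in SKF+Aβ+CSP, -0.06 with SKF+Aβ+CSP‐TTK21 and -0.17 with CSP‐TTK21 alone.

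Of the 10 lysine acetyltransferases, which add the groups that deacetylases remove, none passed with edgeR in any comparison. Hat1, which acetylates newly made histone H4, had the lowest p over the 5 groups, with a mean of 7.38 CPM in SKF and 13.1 CPM in SKF+Aβ (log2 difference 0.83 ± 0.27, edgeR adjusted p = 0.0983), followed by Kat6b with 78.3 and 84.3 CPM (0.11 ± 0.13, adjusted p = 0.675). Crebbp and Ep300, named here because they encode CBP and p300, the targets of TTK21, had log2 differences of 0.13 ± 0.12 (edgeR adjusted p = 0.539) and 0.12 ± 0.14 (adjusted p = 0.651) between SKF+Aβ and SKF, and no lower adjusted p in the other comparisons.

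**Figure D5:**
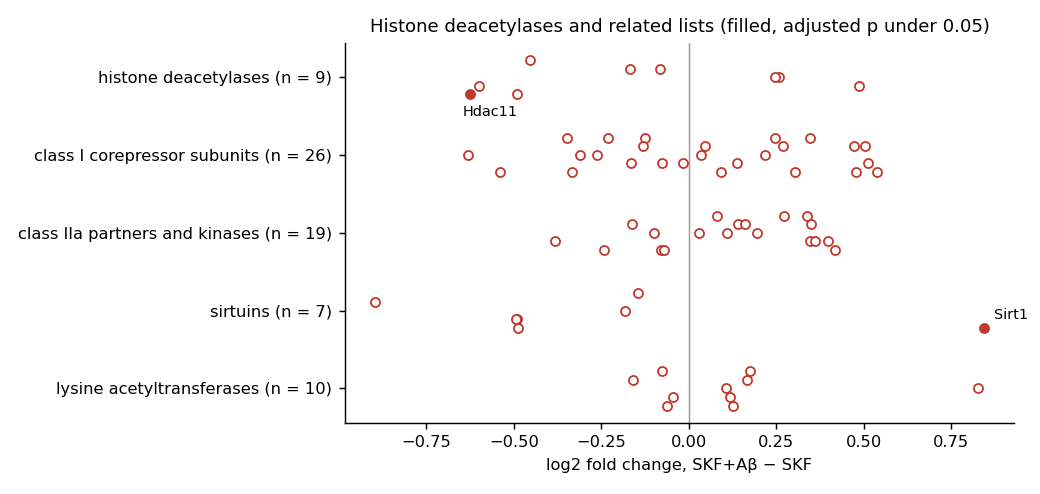
Log2 fold changes of SKF+Aβ against SKF (x axis) for the tested rows of the histone deacetylases and of 4 related lists (y axis), each point a row, spread vertically within its list for legibility and filled where the edgeR adjusted p is under 0.05. Hdac11 at -0.63 and Sirt1 at 0.84 are the only filled points among the 71 rows.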

How the data were processed

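RNA-seq of CA1 tissue from rat hippocampal slices was analysed in 10 libraries, 2 in each of 5 groups taken with their replicate numbers from the sample labels. Each value in the deposited table of 32545 rows is a count for 1 gene (rat Ensembl ID) in 1 library, not normalized by the authors and with no libraries pooled. Libraries were made with a stranded kit after removal of ribosomal RNA, and the methods describe adapter trimming, removal of PCR duplicates, TopHat2 and Cufflinks. They name Rnor_6.0 and, for the alignment, mm10, while the submitters' processing notes list STAR, RSEM, HISAT2, Salmon and GRCh38 with no role. Which program counted the reads, and whether by strand, is not given in the sources used here, so near-identical copies and overlapping genes are uncertain.

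Counts were fitted in R 4.3.3 with edgeR 4.0.16 (filterByExpr, TMM factors, quasi-likelihood F tests with trended dispersions, a mean per group and no block), with all 10 libraries in 1 fit and Benjamini-Hochberg adjustment over the 15032 genes kept. The common biological coefficient of variation was 0.136. Calls are at an adjusted p under 0.05, and a log2 fold change limit of 1.5 was applied separately. The fit was tested on simulated counts, where with 2 libraries a group it recovered few of the small changes, of the size of most differences seen here among the members, so a gene not called may still differ. The alternatives were RLE factors, no filter, at least 10 counts in every library, DESeq2 1.42.0, limma 3.58.1 on log2 CPM with a prior count of 2, a replicate block, only the 4 libraries compared, each library left out in turn, and the criteria of an unadjusted p and of the fold limit. DESeq2 without independent filtering was added after the data were seen.

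The members, the 4 related lists and the markers were chosen with earlier results of these data known, and 3 of their genes are not reported here and were left out of counts and sums. All members were to be named, with fold changes where the unadjusted p was under 0.05 and otherwise by range. From each list the genes past the threshold were named or, where there were none, the 2 with the lowest p over the 5 groups, together with the 3 genes most like the member with the lowest p. Crebbp, Ep300 and the list genes with only an unadjusted p under 0.05 fall outside that rule and were chosen after their values were seen. The methods describe the repeats of a group as biological samples, with 2 libraries each, and the SEs, intervals and p-values of the fit rest on a spread between libraries pooled over the 5 groups and over genes of like level. Floors of counts cover counting error only. Promoters are those of RefSeq on GRCr8, searched on both strands for 4 motifs. Genome positions of the counted genes were not used here.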

Additional observations from a re-analysis of the deposited data

How the results depend on the processing

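No member differed over the 5 groups, except that 2 passed with no filter on low counts (Hdac11 and Hdac7) and 2 had an unadjusted p under 0.05. For SKF+Aβ against SKF the 1 call became 2 with DESeq2, with or without independent filtering, 3 at an unadjusted p, and 0 with only the 4 libraries compared or with the log2 limit of 1.5. It ran from 0 to 1 when single libraries were left out. SKF+Aβ+CSP against SKF went from 0 to 1 with no filter (Hdac11) and 2 at an unadjusted p, SKF+Aβ+CSP‐TTK21 against SKF from 0 to 1 (Hdac7) and 4, and the addition of CSP‐TTK21 to SKF+Aβ from 0 to 1 at an unadjusted p. The other 158 recomputed counts of members stayed within 1.5 times their value. Of the recomputed log2 fold changes of members, 166 kept their side of the threshold, 4 gained and 9 lost a call, and none changed sign. Among other list genes 144 kept their side, 9 gained a call (Mbd3 6 times and Rbbp7 3 times), 7 lost it (all Sirt1), and Kat6b, never called, changed sign to -0.00336 without SKF replicate 2 (its range with single libraries left out was from -0.00336 to 0.21). In 5 cases DESeq2 gave no adjusted p or the filter left the gene out. The cause of these shifts was not tested.

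The number of genes called in all moved more than that of members. For SKF+Aβ against SKF it was 312, and 306 with RLE factors, 1311 with no filter, 822 with DESeq2 (652 without independent filtering), 12 with only the 4 libraries, and between 1 and 301 with a library left out. For SKF+Aβ+CSP and SKF+Aβ+CSP‐TTK21 against SKF it was 3 and 1, but 754 and 902 with no filter and 452 and 355 with DESeq2. Over the 5 groups it was 1, but 1401 and 407. Other counts that moved were 54 with at least 10 counts in every library, 8 with limma and 7 with the replicate block for SKF+Aβ+CSP against SKF, 15 with that block over the 5 groups, and up to 335 for SKF+Aβ+CSP‐TTK21 against SKF with a library left out (without SKF replicate 2). Where edgeR called no gene, a fit with no filter called 157 for CSP‐TTK21 alone against SKF, and between 63 and 307 in the contrasts without SKF as reference. There DESeq2 called up to 22, the block up to 14 and the 4 libraries alone up to 50, each for the contrast between CSP‐TTK21 and its vehicle with SKF+Aβ. Libraries with the same replicate number deviated together in 4 of 10 pairs of groups (correlations between -0.07 and 0.24, 4 over 0.1), so the numbers were not taken as pairs. With the replicate number as a block, 0 members passed over the 5 groups and 1 in SKF+Aβ against SKF (Hdac11, log2 fold change -0.63, edgeR adjusted p = 0.0364), while 425 genes were called in all there and 108 for SKF+Aβ+CSP‐TTK21 against SKF. A group left with 1 library is assumed to vary like the others. The members with the fewest counts were Hdac6 (11 to 29) and Hdac7 (43 to 107), whose replicates also differed by up to 2.10 and 2.12 times.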
